A study of Homo sapiens with 4 samples.

Results

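Described here are 40 genes of hypoxia sensing and response outside glycolysis, taken by symbol from the 43622 genes of each table: the oxygen-regulated transcription factors, the enzymes that sense oxygen, and genes known as targets of those factors. All 40 symbols were found once in each of the 4 tables. The libraries came from A549 and H1993, both established human lung adenocarcinoma cell lines labelled as lung epithelial cells, each grown as an adherent culture and as spheroids, which the design text equates with cancer stem cells. Every line and culture was represented by 1 library, the labels name no treatment of any of the 4, and they give no oxygen level for either culture. No difference between a pair of libraries therefore has a replicate check. In bulk RNA, fewer cells with a transcript and less transcript per cell cannot be told apart.

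Hypoxia-inducible factors (HIFs) pair an oxygen-regulated alpha subunit with a stable beta subunit. When oxygen is available, prolyl hydroxylases of the EGLN family mark the alpha subunit, the VHL ubiquitin ligase binds the mark, and the protein is destroyed. When oxygen is short the alpha subunit persists and the pair binds a short core, ACGTG or GCGTG, near genes for angiogenesis, pH control, mitochondrial clearance and collagen modification. This control acts on the protein, which mRNA libraries do not measure.

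The 4 libraries held 15331121 to 17681746 exonic reads. A count of 0 therefore allows up to 0.170 to 0.196 counts per 1000000 exonic reads (CPM), the value of 3 reads. Intronic reads made up 8.43% to 11.6% of gene reads and mitochondrial genes 4.57% to 8.29% of exonic reads, lowest in A549 spheroids for introns and in H1993 spheroids for mitochondria. The library labelled H1993 adherent resembled A549 adherent cells (Pearson r = 0.947 across 15273 genes) more than H1993 spheroids (r = 0.846), where genes are not independent replicates. It had 75 and 89 reads of CDKN2A and CDKN2B, which were at 0 in both A549 libraries and at 308 and 371 in H1993 spheroids. A difference between lines and one between cultures cannot be told apart in the H1993 pair, and its values are given for the libraries as labelled. Epithelial markers (5 of 5 above 0 in each library) were abundant, while the 4 lung markers summed to at most 41 reads, with NKX2-1 at 0 in both A549 libraries. Fibroblast, endothelial and blood markers summed to at most 824, 133 and 226 reads in any library.

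For the sequence context, RefSeq promoter windows (GRCh38.p14, 250 bases before to 50 after each transcript start) were matched for 34 of the 40 genes, 46 windows in all. The cores ACGTG and GCGTG were searched on both strands, so that the palindrome CACGTG counts as 2 overlapping matches. Below are the 200 bases before the start of 6 genes, 5′ to 3′ on the gene's strand, with the matched letters in capitals (CACGT and CACGC are the cores read on the opposite strand). They are shown because their genes were among those higher in A549 spheroids and because they differ in how the core is placed: next to the start in CA9 and PDK1 (its second start), as a palindrome in CITED2 (its first start), as a palindrome and a further core in ANKRD37, in a cluster in BNIP3, and absent from the window in EGLN3.
CA9: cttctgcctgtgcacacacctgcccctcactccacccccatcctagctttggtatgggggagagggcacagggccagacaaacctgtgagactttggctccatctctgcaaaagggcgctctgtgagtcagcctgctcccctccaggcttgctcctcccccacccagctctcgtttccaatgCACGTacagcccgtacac
PDK1: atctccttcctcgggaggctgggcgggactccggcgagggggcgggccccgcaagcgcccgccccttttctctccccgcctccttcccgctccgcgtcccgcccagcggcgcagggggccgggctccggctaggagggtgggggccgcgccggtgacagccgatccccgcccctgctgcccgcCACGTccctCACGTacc
ANKRD37: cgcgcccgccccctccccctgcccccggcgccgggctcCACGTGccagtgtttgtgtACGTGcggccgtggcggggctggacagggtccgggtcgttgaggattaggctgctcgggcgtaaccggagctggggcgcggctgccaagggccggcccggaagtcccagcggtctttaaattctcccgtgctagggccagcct
CITED2: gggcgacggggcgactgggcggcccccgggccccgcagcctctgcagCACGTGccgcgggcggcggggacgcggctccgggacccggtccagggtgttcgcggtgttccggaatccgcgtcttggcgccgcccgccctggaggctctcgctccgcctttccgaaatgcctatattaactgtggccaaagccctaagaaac
BNIP3: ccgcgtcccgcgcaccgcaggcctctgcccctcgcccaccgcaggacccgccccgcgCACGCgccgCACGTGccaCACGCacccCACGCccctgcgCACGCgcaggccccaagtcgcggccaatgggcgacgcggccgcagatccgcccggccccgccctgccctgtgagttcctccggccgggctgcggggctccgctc
EGLN3: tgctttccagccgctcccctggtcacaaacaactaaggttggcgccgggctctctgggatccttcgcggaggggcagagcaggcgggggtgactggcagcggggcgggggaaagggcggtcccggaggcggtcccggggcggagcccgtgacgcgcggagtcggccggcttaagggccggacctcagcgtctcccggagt
These stretches lie at chr9:35673728-35673927 (plus strand), chr2:172555890-172556089 (plus), chr4:185396641-185396840 (plus), chr6:139374649-139374848 (minus), chr10:131981924-131982123 (minus) and chr14:33951075-33951274 (minus).

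A core was common in the promoters of these genes. At least 1 match was in 35 of 46 windows (76.1%), against 60.0% of 15824 windows of the genes measured here and 48.4% of all 35116. For ACGTG alone the shares were 47.8%, 25.1% and 21.4%. The median GC content was 68.2% in the 46 windows and 64.7% in the windows of measured genes, and its part in the shares was not tested. The list is made up largely of known targets of the factors that bind this core. The higher shares are therefore not independent of how the genes were chosen. Windows of genes counted below as higher in A549 spheroids held ACGTG in 18 of 30 cases and those of the other genes in 4 of 16. Some genes have several windows, which can overlap, as in LOX. By gene, 16 of 23 and 4 of 11 had it. Most of those 11 are HIF subunits or sensors (HIF1A, EPAS1, HIF3A, ARNT, HIF1AN, EGLN1 and EGLN2), and HIF3A was not measured. The genes higher in A549 spheroids are mostly known targets. These groups thus also differ in role, and its part in the difference was not tested. Among the windows of genes higher in both pairs ACGTG was in 5 of 13 (38.5%), below the share of all 46. These 13 windows belong to 10 genes, since NDRG1, STC1 and VEGFA had none. By gene, ACGTG was in 5 of 10, against 20 of all 34. A match is a description of letters, and a window without one says only that the letters are not in it. EGLN3, with the second highest A549 fold among the genes that have a window, had none.

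**Figure D1:**
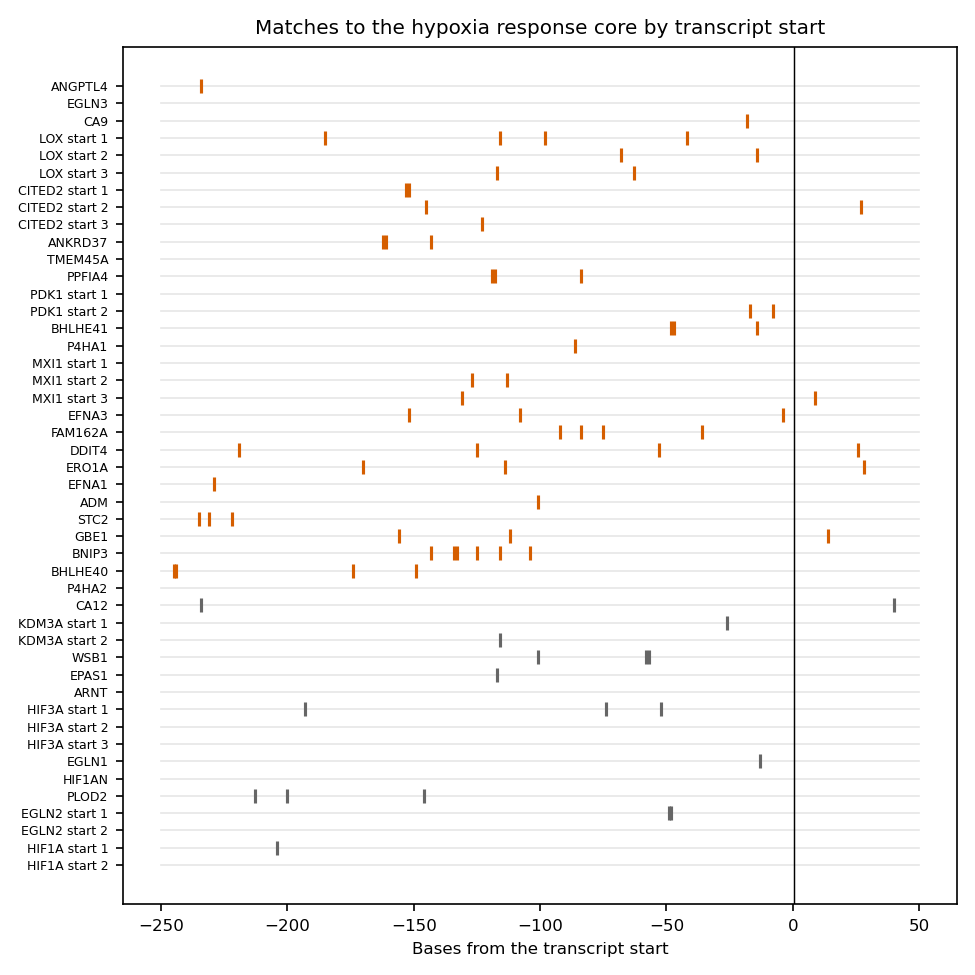
Positions of ACGTG and GCGTG on either strand (ticks) from 250 bases before to 50 after each RefSeq transcript start (vertical line), for the 46 windows of 34 genes, ordered from the highest to the lowest log2 fold in A549. Orange ticks belong to genes counted as higher in A549 spheroids and grey ticks to the others; LOX, PDK1 and CA9 have cores close to a start and EGLN3 and TMEM45A have none in the window.

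Most of these genes had more reads in A549 spheroids than in A549 adherent cells. A difference counted as higher or lower at 2-fold or more, where the 95% counting interval of both read counts also excluded no change, after scaling by trimmed mean of M-values (TMM) factors. Folds below are log2 of spheroid over adherent with that interval in brackets, and the interval covers counting error only. In the A549 pair 27 of 39 genes measured were higher and 0 lower, where 12.4% of 15273 genes were higher and 10.3% lower. The median was 1.37, against -0.0039 over all genes. In the H1993 pair 15 were higher and 4 lower, against 17.0% and 18.0% of all genes, with a median of 0.60. The 39 leave out HIF3A, an alternative alpha subunit, which had 0, 0, 1 and 2 reads. Wherever 4 values follow each other, the order is adherent A549, spheroid A549, the library labelled H1993 adherent, then spheroid H1993. With library size alone as the scaling, the median of all genes moved to -0.11 in A549 and the count there was 25 higher and 1 lower.

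Of the 39 genes, 13 were higher in both pairs, against 4.70% of all genes, and 0 were lower in both, against 3.90%. None was higher in A549 and lower in H1993 or the reverse, as 1.82% and 1.25% of all genes were. Those 13 were EGLN3, CITED2, BHLHE41, ANKRD37, VEGFA, ADM, STC1, STC2, EFNA1, PDK1, DDIT4, NDRG1 and TMEM45A. A further 14 were higher in the A549 pair and neither higher nor lower in the H1993 pair, against 5.84% of all genes. EPAS1 and ARNT2 were higher in the H1993 pair and neither in the A549 pair, against 11.1% of all genes, and ARNT, VHL, HIF1AN, EGLN2, KDM3A and WSB1 were neither in either pair, against 54.0%. With A549 adherent cells in place of the library labelled H1993 adherent, a choice made after seeing the data, H1993 spheroids had 19 of these genes higher and 4 lower, against 17.9% and 18.3% of all genes. The 13 jointly higher genes were all among the 19, which is no separate check, because this comparison shares a library with each pair. HIF1A stood at -1.36, EPAS1 at 2.01, EGLN1 at -1.30 and NDRG1 at 3.58 in that comparison, which also changes the line.

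**Figure D2:**
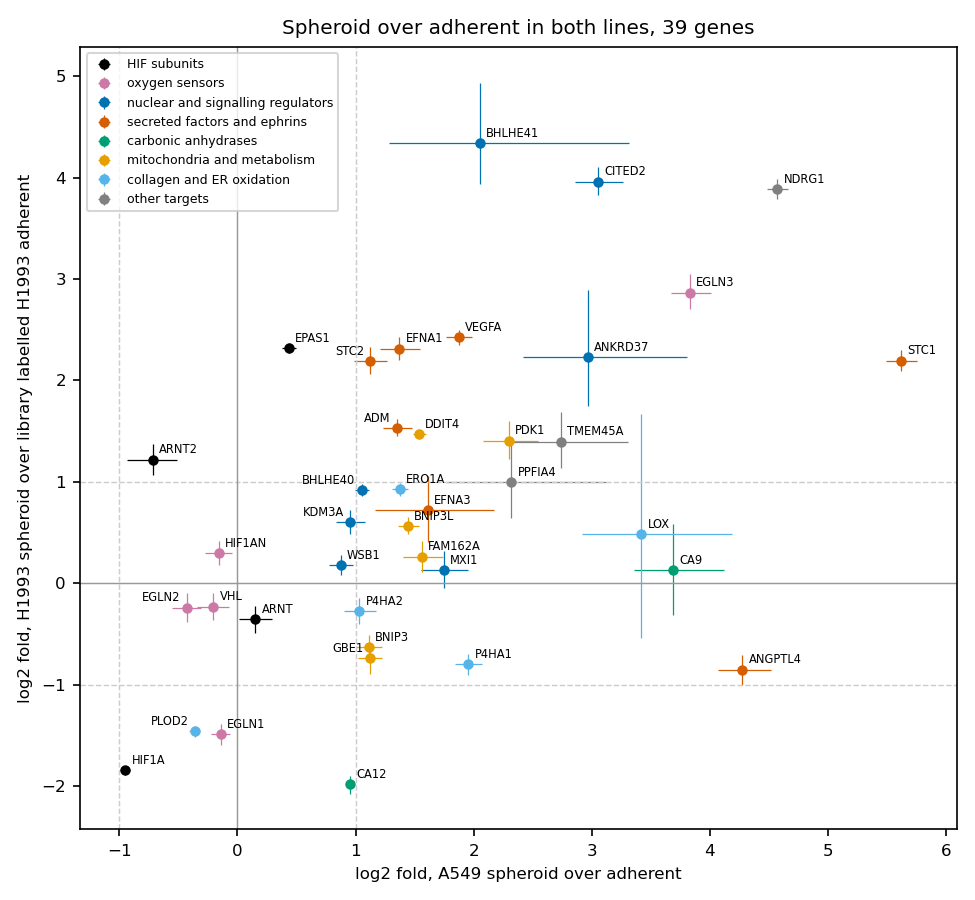
Log2 fold of spheroid over adherent in the A549 pair (horizontal axis) and the H1993 pair as labelled (vertical axis) for 39 genes, coloured by role, with 95% counting intervals as bars and dashed lines at a 2-fold difference. NDRG1, EGLN3, STC1, CITED2 and BHLHE41 lie far to the upper right, HIF1A to the lower left, and CA9, LOX and ANGPTL4 are high in A549 alone.

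Over both lines together, 0 of 15273 genes passed edgeR's quasi-likelihood test with Benjamini-Hochberg adjustment, with line and culture as terms and 1 residual degree of freedom. The smallest adjusted p of the 39 was 0.264, for NDRG1. It equals the smallest of all 15273 genes, a value that the adjustment gave to other genes too. It therefore does not rank NDRG1 first among them. At an unadjusted p under 0.05, 14 of the 39 were higher in spheroids and 1 lower, against 4.69% and 3.54% of all genes (edgeR). DESeq2 with the same terms passed 8 of the genes as higher, against 2.28% of all genes, and 0 as lower. The 8 were NDRG1, CITED2, EGLN3, STC1, BHLHE41, VEGFA, ANKRD37 and EFNA1. With no filter on low counts edgeR passed 4, which were CITED2, STC1, NDRG1 and EGLN3, against 0.502% of all genes.

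The alpha subunits differed in direction. HIF1A, the widely expressed alpha subunit (ENSG00000100644, hg38 chromosome 14, 61695513 to 61748259), was listed at 583, 279, 802 and 235 TPM, the deposited level per exon length. It was lower in both spheroid libraries than in both adherent ones, with a log2 fold of -0.95 (-0.99 to -0.91) in A549, under 2-fold, and of -1.84 (-1.89 to -1.80) in the H1993 pair. With scaling by library size alone the A549 value was -1.06 and passed 2-fold. Only 44.2% to 48.1% of its exonic reads were unique to it, and a further gene model on the same strand, AL137129.1, overlaps it. EPAS1, the HIF-2 alpha subunit (ENSG00000116016, hg38 chromosome 2, 46293667 to 46386703), stood at 127, 159, 101 and 530.4 TPM. Its fold was 0.44 (0.38 to 0.49) in A549 and 2.32 (2.27 to 2.37) in the H1993 pair, and H1993 spheroids stood above the other 3 libraries. HIF1A thus had 4.59 times the TPM of EPAS1 in A549 adherent cells and 1.75 times in A549 spheroids. For the library labelled H1993 adherent the ratio was 7.93. EPAS1 was the higher of the pair in H1993 spheroids, at 2.26 times HIF1A. On the opposite strand of HIF1A, the antisense RNA HIF1A-AS2 had 1, 24, 1 and 19 reads, higher in both spheroid libraries, and HIF1A-AS1 had 15, 3, 27 and 1. The sources used here do not state whether counting used strand, so reads of a gene and its antisense partner cannot be told apart.

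The 2 beta subunits differed from each other. ARNT, the common partner of both alpha subunits, was at 26.0, 26.8, 32.6 and 26.8 TPM and under 2-fold in each comparison. ARNT2, its paralog, was at 13.6, 7.67, 13.1 and 32.3 TPM, lowest in A549 spheroids and highest in H1993 spheroids. Its fold was -0.72 (-0.93 to -0.51) in A549 and 1.22 (1.07 to 1.38) in the H1993 pair, with opposite signs in exonic reads. The H1993 value did not extend to its other reads: the intronic fold there was 0.054 (-0.53 to 0.64) and the fold of exon-exon junction reads -0.36 (-0.82 to 0.088). In A549 both were below 0, at -0.72 and -1.08.

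Among the oxygen sensors only EGLN3 was higher. EGLN3, the prolyl hydroxylase known as the most hypoxia-inducible of its family (ENSG00000129521, hg38 chromosome 14, 33924231 to 34462774), had 305, 4552, 311 and 2010 reads and 9.01, 119, 8.29 and 64.0 TPM. Both spheroid libraries stood well above both adherent ones, with folds of 3.83 (3.67 to 4.01) and 2.87 (2.70 to 3.05). EGLN1, the main hydroxylase in normal oxygen, was at 78.9, 66.2, 88.8 and 33.3 TPM, with -0.14 (-0.22 to -0.062) in A549 and -1.49 (-1.59 to -1.39) in the H1993 pair, where it was lower. EGLN2, the third family member, was at 40.0, 27.5, 29.4 and 26.2 TPM and under 2-fold in each comparison, though at most 1.11% of its reads in a library were unique to it, since the read-through model RAB4B-EGLN2 covers it. EGLN3 therefore made up 7.04% of the summed TPM of the 3 hydroxylases in A549 adherent cells and 6.55% in the library labelled H1993 adherent. The share was 55.98% in A549 spheroids and 51.8% in H1993 spheroids. VHL, the substrate receptor of the ligase, stood at 47.5, 38.2, 50.5 and 45.2 TPM and HIF1AN, the asparaginyl hydroxylase that blocks coactivator binding, at 19.4, 16.1, 16.0 and 20.7 TPM. Neither was 2-fold apart in any of the 4 comparisons.

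**Figure D3:**
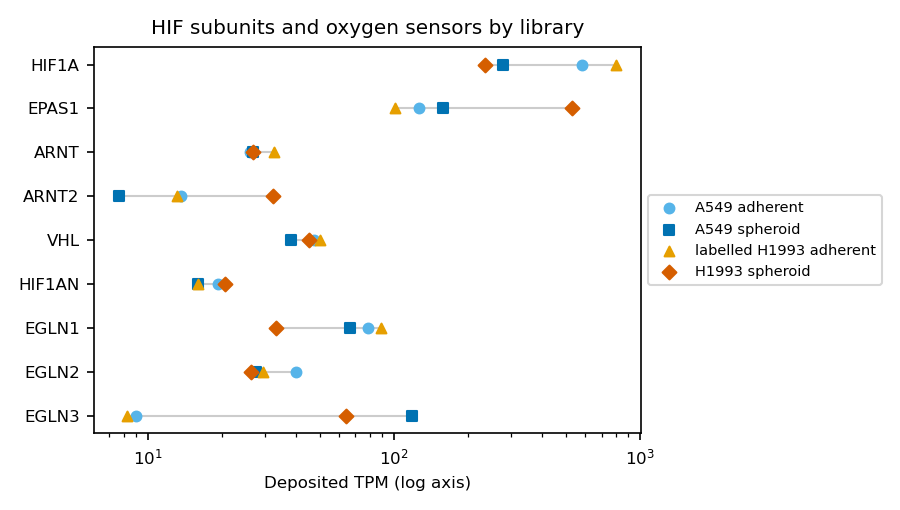
Deposited TPM on a log axis for 4 HIF subunits and 5 oxygen sensing genes in the 4 libraries (1 point per library; HIF3A, at 0 to 2 reads, is left out). HIF1A is lower and EGLN3 higher in both spheroid libraries than in both adherent ones, and for VHL, HIF1AN and ARNT the 4 libraries lie close together.

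A list of 14 further HIF regulators, chosen with earlier results of these data known, had 0 genes higher and 0 lower in the A549 pair, with a median of -0.067. In the H1993 pair 1 was higher and 1 lower, with a median of -0.056. Over all genes, 12.4% were higher and 10.3% lower in the A549 pair, and 17.0% and 18.0% in the H1993 pair. USP20, a deubiquitinase that acts on the HIF-1 alpha protein, was at 0.87 (0.57 to 1.19) in A549 and 1.81 (1.59 to 2.06) in the H1993 pair. SENP1, a SUMO protease, was at -0.79 (-0.98 to -0.62) and -1.18 (-1.40 to -0.98). HSP90AA1, a chaperone that binds the alpha subunit, was at -0.79 in A549, OS9 at 0.73 and 0.80, and SIAH2, a ligase that targets EGLN proteins, at 0.68 in the H1993 pair, all under 2-fold.

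Genes that act back on transcription or signalling were higher in A549 spheroids in 5 of 7 cases and in the H1993 pair in 3. The shares of all genes that were higher were 12.4% in the A549 pair and 17.0% in the H1993 pair. CITED2, which competes with HIF alpha subunits for the coactivators CBP and p300 (ENSG00000164442, hg38 chromosome 6, 139371807 to 139374620), had 224, 1954, 454 and 6251 reads and 19.2, 149, 35.1 and 578 TPM. Its folds were 3.05 (2.86 to 3.27) and 3.96 (3.83 to 4.11), with both spheroid libraries above both adherent ones. BHLHE41, a transcriptional repressor of the clock and of hypoxia responses, had 11, 54, 37 and 697 reads, at 2.05 (1.28 to 3.32) in A549 from the 11 reads of adherent cells and at 4.34 (3.94 to 4.94) in the H1993 pair. Its paralog BHLHE40 was far more abundant, at 188, 361, 190.0 and 379 TPM, and had smaller folds, at 1.05 (0.99 to 1.11) and 0.92 (0.86 to 0.98). The A549 value of BHLHE40 lies at the 2-fold limit and was 0.94 with library size alone. Per length, BHLHE40 was 310.0 times BHLHE41 in A549 adherent cells and 9.16 times in H1993 spheroids. ANKRD37, a small ankyrin protein that is a direct HIF target, had 21, 185, 33 and 143 reads, with folds of 2.96 (2.42 to 3.80) and 2.23 (1.74 to 2.89). MXI1, an antagonist of MYC, was at 1.74 (1.56 to 1.95) in A549 and 0.13 (-0.049 to 0.32) in the H1993 pair. KDM3A, a histone demethylase, at 0.95 and 0.60, and WSB1, a ubiquitin ligase subunit, at 0.87 and 0.18, were under 2-fold in both.

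All 7 genes for secreted factors and ephrins were higher in A549 spheroids (12.4% of all genes) and 5 of 7 in the H1993 pair (17.0%). STC1, a secreted glycoprotein hormone (ENSG00000159167, hg38 chromosome 8, 23841915 to 23854807), had 468, 24037, 916 and 3704 reads and 24.5, 1116, 43.3 and 209 TPM. It had the highest TPM of the 40 genes in A549 spheroids and had their highest A549 fold, 5.61 (5.49 to 5.75), against 2.20 (2.09 to 2.31) in the H1993 pair. Its paralog STC2 stood at 20.8, 42.0, 19.2 and 92.7 TPM, with 1.12 (0.99 to 1.27) and 2.19 (2.07 to 2.33). Per length STC1 was 26.6 times STC2 in A549 spheroids and between 1.18 and 2.26 times in the other 3 libraries. VEGFA, the main angiogenic growth factor, was at 13.1, 44.5, 24.3 and 137 TPM, with folds of 1.87 (1.77 to 1.98) and 2.42 (2.35 to 2.50). ADM, the vasodilator peptide adrenomedullin, was at 59.1, 139.9, 111 and 337 TPM, with 1.35 (1.23 to 1.48) and 1.53 (1.45 to 1.62). In both genes the 2 spheroid libraries stood above the 2 adherent ones, and H1993 spheroids were highest. EFNA1, an ephrin ligand, was also highest in H1993 spheroids (34.0, 81.7, 58.9 and 309 TPM), with 1.37 (1.21 to 1.55) and 2.31 (2.20 to 2.43). EFNA3, a related ephrin whose reads were 62.2% to 69.7% unique, was at 1.61 (1.16 to 2.17) in A549 and 0.72 (0.40 to 1.06) in the H1993 pair.

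ANGPTL4, a secreted inhibitor of lipoprotein lipase (ENSG00000167772, hg38 chromosome 19, 8363289 to 8374373), differed between the pairs. It had 170, 3473, 1106 and 539 reads and 14.9, 269.6, 87.4 and 50.9 TPM. The fold was 4.27 (4.07 to 4.52) in A549 and -0.85 (-1.005 to -0.70) in the H1993 pair, and between the 2 adherent libraries it was 2.56 (2.34 to 2.81), H1993 over A549. A549 adherent cells were thus the lowest of the 4 libraries and the library labelled H1993 adherent lay above H1993 spheroids. Against A549 adherent cells, H1993 spheroids stood at 1.71.

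The 2 carbonic anhydrases, membrane enzymes of pH control, were far lower in H1993 spheroids than in A549 spheroids. CA9, a widely used marker of hypoxia (ENSG00000107159, hg38 chromosome 9, 35673856 to 35681159), had 63, 872, 87 and 84 reads and 8.20, 101, 10.2 and 11.8 TPM. Only A549 spheroids stood apart, at 3.69 (3.36 to 4.12), while the H1993 pair gave 0.13 (-0.32 to 0.58). ARHGEF39, a gene on the opposite strand that overlaps CA9, had 398, 40, 407 and 133 reads and was at its lowest where CA9 was highest. CA12 was much more abundant, at 320.1, 575, 154 and 41.0 TPM. It was at 0.95 (0.92 to 0.99) in A549, just under 2-fold, and at -1.98 (-2.07 to -1.90) in the H1993 pair. Between the spheroid libraries CA12 stood at -3.97 (-4.06 to -3.89) and CA9 at -3.23 (-3.60 to -2.93), H1993 over A549.

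All 6 genes of mitochondria and metabolism were higher in A549 spheroids, and 2 of them, PDK1 and DDIT4, in the H1993 pair. Of all genes, 12.4% were higher in the A549 pair and 17.0% in the H1993 pair. PDK1, the kinase that inhibits pyruvate dehydrogenase, was at 2.61, 12.0, 4.56 and 12.8 TPM, with 2.30 (2.08 to 2.55) and 1.41 (1.23 to 1.60). DDIT4, an inhibitor of mTORC1, was at 390.4, 1050.4, 454 and 1328 TPM, with 1.54 (1.48 to 1.59) and 1.47 (1.42 to 1.52), and had the highest TPM of the 40 genes in H1993 spheroids. For both, each spheroid library stood above each adherent one. BNIP3 and BNIP3L, paired receptors for the removal of mitochondria, were at 1.11 (1.005 to 1.23) and 1.44 (1.36 to 1.53) in A549. In the H1993 pair they lay on opposite sides of 0, at -0.63 (-0.75 to -0.51) and 0.57 (0.48 to 0.65). FAM162A, a mitochondrial protein, was at 1.56 and 0.26. GBE1, the glycogen branching enzyme, was at 49.6, 100.1, 40.1 and 25.2 TPM, highest in A549 spheroids and lowest in H1993 spheroids, with 1.12 (1.02 to 1.22) and -0.74 (-0.89 to -0.59).

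Genes of collagen modification and oxidation in the endoplasmic reticulum were higher in A549 spheroids in 4 of 5 cases and in 0 of 5 in the H1993 pair, where 12.4% and 17.0% of all genes were higher, so the count of 0 is near the background. P4HA1, a collagen prolyl hydroxylase, was at 56.3, 202, 153 and 92.7 TPM, with 1.95 (1.84 to 2.07) in A549 and -0.80 (-0.90 to -0.70) in the H1993 pair. Its paralog P4HA2 was at 1.03 (0.90 to 1.17) and -0.27 (-0.41 to -0.14), and with library size alone the A549 value was 0.92. LOX, which cross-links collagen, had 24, 288, 14 and 18 reads, so only A549 spheroids stood apart, at 3.42 (2.92 to 4.19). PLOD2, a collagen lysyl hydroxylase, went the other way, at 207, 149, 317 and 121 TPM. It was at -0.36 (-0.41 to -0.31) in A549, under 2-fold, and at -1.46 (-1.51 to -1.41) in the H1993 pair, where it was lower. ERO1A, the oxidase that drives disulfide formation, was at 71.2, 171, 82.1 and 164 TPM, similar in both spheroid libraries and above both adherent ones, with 1.37 (1.31 to 1.44) and 0.93 (0.86 to 0.99).

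NDRG1, a stress-responsive protein and one of the most strongly hypoxia-induced transcripts known (ENSG00000104419, hg38 chromosome 8, 133237171 to 133302022), had 1056, 26280, 937 and 12211 reads and 23.4, 516, 18.7 and 291 TPM. Its folds of 4.57 (4.49 to 4.66) and 3.88 (3.79 to 3.98) were both large, with the adherent libraries close to each other and far below the spheroids. TMEM45A, a transmembrane protein, had 41, 298, 156 and 365 reads, with 2.74 (2.32 to 3.31) and 1.40 (1.14 to 1.69). PPFIA4, a liprin scaffold, had 23, 128, 98 and 174 reads, with 2.32 (1.77 to 3.12) in A549 and 0.996 in the H1993 pair, just under 2-fold. Over the 30 genes that are neither HIF subunits nor sensors, the summed TPM was 1719 in adherent and 5601 in spheroid A549 cells. For H1993 as labelled it was 2113 in the adherent and 4619 in the spheroid library.

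**Figure D4:**
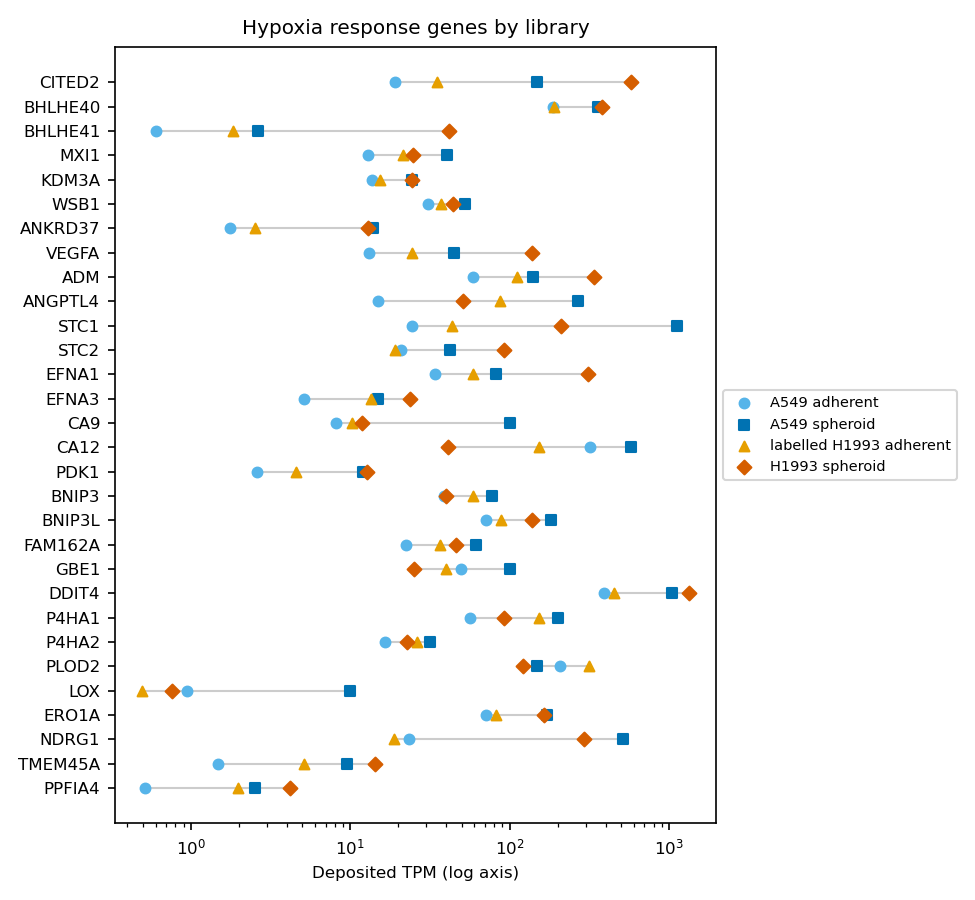
Deposited TPM on a log axis of the 30 response genes in the 4 libraries, 1 point per library. NDRG1, STC1, VEGFA, ADM, EFNA1 and DDIT4 have both spheroid libraries above both adherent ones, whereas ANGPTL4, P4HA1, PLOD2 and CA12 do not.

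Between the 2 libraries labelled adherent, 6 of 39 genes were higher in H1993 and 1 lower, against 6.94% and 5.49% of all genes, with a median log2 difference of 0.35, H1993 over A549. The higher ones were ANGPTL4, PPFIA4, TMEM45A, BHLHE41, P4HA1 and EFNA3, and the lower one was CA12. Of the 39 genes 29 lay above 0, against 7670 of all 15273 genes. A549 adherent cells were the lowest library for 25 of the 39 by TPM, a count not made over all genes. Between the spheroid libraries, 7 were higher in H1993 and 10 lower, against 18.0% and 19.1% of all genes, with a median of -0.23. BHLHE41 at 3.76, ARNT2 at 1.90, CITED2 at 1.79 and EPAS1 at 1.57 were among the higher ones. CA12, LOX at -3.75, CA9, STC1 at -2.58 and ANGPTL4 at -2.57 were among the lower ones. These pairs share libraries with the spheroid over adherent pairs, so their values are not independent of those above.

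Reads in introns, which come largely from unspliced RNA, differed in the same direction as exonic reads for most of the genes described here. Among those with at least 50 intronic reads in the higher library, the exonic and intronic folds had the same sign in 25 of 27 in the A549 pair and in 28 of 29 in the H1993 pair. This counts signs alone, and some of the intronic intervals with the same sign held 0. They were those of ARNT, EGLN1 and STC2 in A549. In the H1993 pair they were those of ARNT, ARNT2, BNIP3, FAM162A, GBE1, P4HA1 and P4HA2. The same count over all genes was not made, so the agreement in sign is not shown to be particular to the 27 and 29 genes. Median intronic folds were 1.20 and 0.085 for these genes, against -0.046 and 0.003 over all 8022 and 8881 genes with that many. NDRG1 had 66, 3395, 95 and 1951 intronic reads, with intronic folds of 5.91 and 4.52 that exceeded its exonic ones. FAM162A had 21, 162, 82 and 76, with an intronic fold of 3.10 (2.56 to 3.95) in A549. HIF1A had 1098, 343, 1984 and 409, with -1.40 and -2.08, so that its intronic reads were lower in both pairs too. EPAS1 was higher in introns as well, at 0.78 and 2.76.

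BHLHE40 was the exception in both pairs, beside PLOD2 in A549, whose intronic fold was 0.20 (-0.027 to 0.43). It had 656, 340, 812 and 438 intronic reads, so its introns were lower in spheroids while its exons were higher. The intronic folds were -0.67 (-0.87 to -0.48) and -0.69 (-0.86 to -0.52). Reads across its exon-exon junctions were higher, at 1.36 and 1.15. Its exonic minus intronic difference exceeded that of 99.7% of all genes in A549 and 99.0% in the H1993 pair. The antisense gene BHLHE40-AS1 overlaps it and had 9, 7, 15 and 7 exonic reads. Its part in the intronic reads was not tested. ANGPTL4 in A549, at 2.32 in introns, and CITED2 in the H1993 pair, at 2.26, were also well below their exonic folds, with the same sign.

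**Figure D5:**
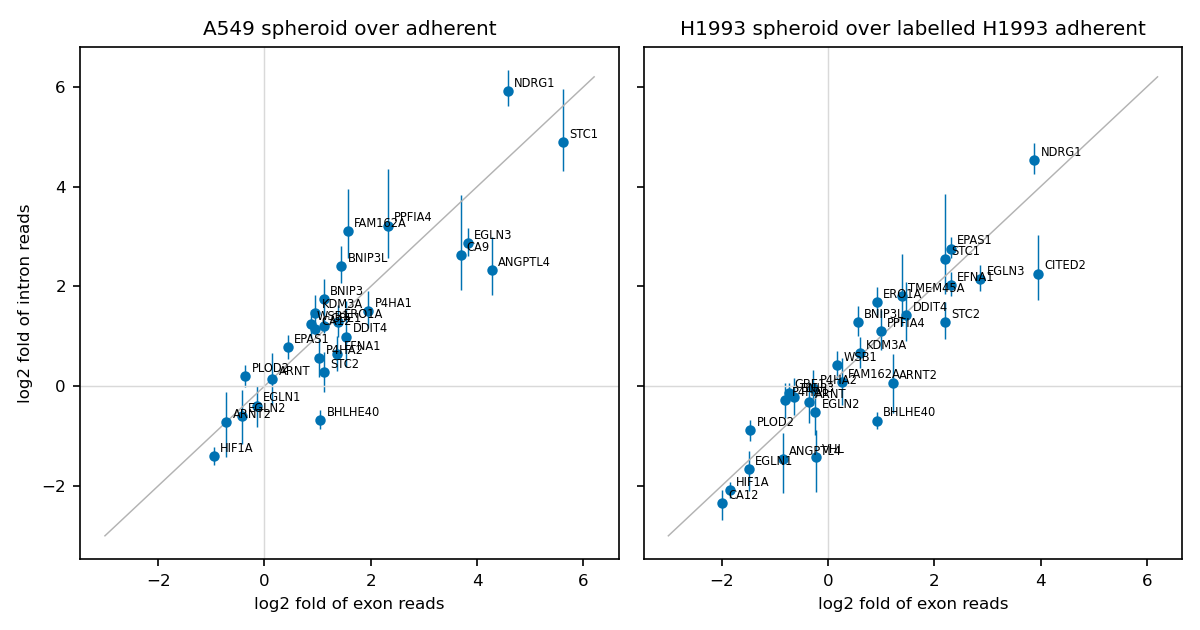
Log2 fold of intronic reads (vertical axis, with 95% counting intervals) against that of exonic reads (horizontal axis) for 27 genes in the A549 pair and 29 in the H1993 pair, with the line of equal folds. BHLHE40 lies below 0 on the intronic axis and near 1 on the exonic axis in both panels.

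Other targets of the pathway included higher and lower genes. Of 30 further hypoxia targets chosen with earlier results known, 25 were measured. In the A549 pair 12 were higher and 2 lower, against 12.4% and 10.3% of all genes, with a median of 0.85. In the H1993 pair 9 were higher and 5 lower, against 17.0% and 18.0% of all genes, with a median of 0.24. The counts of lower genes are near the shares of all genes in both pairs. PPP1R3C, a glycogen-targeting subunit of protein phosphatase, was at 3.56 (3.33 to 3.82) in A549. MIR210HG, the host transcript of the hypoxia microRNA miR-210, was there at 3.31 (2.96 to 3.77) and IGFBP3, a binding protein of insulin-like growth factors, at 3.02 (2.97 to 3.07). The A549 fold of HILPDA, a lipid droplet protein, was 2.76 (2.63 to 2.90). In the H1993 pair TGFA, a ligand of the EGF receptor, was at 2.61 (2.37 to 2.89) and NFIL3, a transcription factor, at 2.19 (2.01 to 2.39). EDN1, the vasoconstrictor endothelin, had 1405, 865, 1443 and 49 reads and stood at -4.64 (-5.14 to -4.29) there. TFRC, the transferrin receptor, was at -1.02 (-1.09 to -0.95) and -2.05 (-2.13 to -1.97), lower in both pairs. EPO, the red cell hormone and a classic HIF target, had 0 reads in all 4 libraries.

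Of 15 glycolytic targets, 6 were higher and 1 lower in the A549 pair, against 12.4% and 10.3% of all genes. In the H1993 pair 6 were higher and 2 lower, against 17.0% and 18.0%, so the counts of lower genes are near the background. HK2, a hexokinase, stood at 4.03 (3.59 to 4.68) and 3.90 (3.70 to 4.13), ALDOC, an aldolase, at 3.79 and 2.23, and SLC16A3, the lactate exporter, at 1.59 and 1.84. ENO2, an enolase, was at 2.02 in A549, and PFKFB3, which makes the activator of phosphofructokinase, was lower in both pairs, at -1.12 and -1.57. Neither of these lists is independent of the 40 genes in its choice, and their counts stand beside the shares of all genes given above for each pair.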

How the data were processed

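Each of the 4 libraries was prepared from total RNA with a stranded mRNA kit, per the labels' protocols, and the genome build was hg38, per the submitters' processing notes. Neither the aligner, the counter nor its annotation is named (not given in the sources used here). Each deposited table held whole-number read counts per gene over exons, introns and exon-exon junctions for 1 library. The deposited TPM values, made by the authors, summed to 1000000 in each library. Groups came from the sample titles. Total exonic counts were filtered with edgeR 4.0.16 (filterByExpr, 15273 genes kept) and TMM-scaled. A prior count of 2 entered each log2 fold, and intervals are exact Clopper-Pearson 95% intervals of 2 counts. Reads are not separate molecules, so intervals and floors cover counting error only. Over both lines, glmQLFit and glmQLFTest were used, with DESeq2 1.42.0 as the alternative. Introns were scaled by their own TMM factors. The fold, interval and test were tested on simulated data. There the test over both lines depended on the variation set between libraries beyond counting (dispersion). At a dispersion of 0.1 it recovered 1% of 2-fold and 69% of 4-fold changes. At 0.02 it recovered 82.5% and 100%.

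The 40 genes and the other lists were chosen with earlier results of these data known. All 40 genes may be named. From each other list the rule names the 4 genes with the largest fold in each pair (at least 100 reads in the higher library). EPO and the genes that overlap members were named outside that rule. The 3 lists besides the 40 genes, and marker lists of epithelial, lung, fibroblast, endothelial and blood cells and of line, are given once each. Alternatives were other scalings, filters, prior counts, fold limits, unique reads and the deposited TPM. Promoter windows came from RefSeq, read 5′ to 3′.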

Additional observations from a re-analysis of the deposited data

Results flagged for a closer look

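The 7 genes below had counting intervals on opposite sides of 0 in the 2 pairs and passed 2-fold in at least 1 of them. With 1 library per line and culture, the difference between the pairs was not tested, and the library labelled H1993 adherent enters the H1993 value of each. The inhibitor of lipoprotein lipase ANGPTL4 stood at 4.27 in the A549 pair and at -0.85 in the H1993 pair, a difference of -5.12 (H1993 minus A549). The carbonic anhydrase CA12 stood at 0.95 in the A549 pair and at -1.98 in the H1993 pair, a difference of -2.94 (H1993 minus A549). The collagen prolyl hydroxylase P4HA1 stood at 1.95 in the A549 pair and at -0.80 in the H1993 pair, a difference of -2.75 (H1993 minus A549). Its paralog P4HA2 stood at 1.03 in the A549 pair and at -0.27 in the H1993 pair, a difference of -1.31 (H1993 minus A549). The glycogen branching enzyme GBE1 stood at 1.12 in the A549 pair and at -0.74 in the H1993 pair, a difference of -1.86 (H1993 minus A549). The mitophagy receptor BNIP3 stood at 1.11 in the A549 pair and at -0.63 in the H1993 pair, a difference of -1.74 (H1993 minus A549). The beta subunit ARNT2 stood at -0.72 in the A549 pair and at 1.22 in the H1993 pair, a difference of 1.94 (H1993 minus A549). Set against A549 adherent cells in place of the library labelled H1993 adherent, H1993 spheroids stood at 1.71 for ANGPTL4, 0.67 for P4HA1, 0.40 for P4HA2, -0.017 for BNIP3, -3.02 for CA12, -1.03 for GBE1 and 1.18 for ARNT2. In the H1993 pair the intronic and junction folds of ARNT2 were 0.054 and -0.36, and both intervals held 0.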

How the results depend on the processing

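A 3-fold limit in place of 2-fold left 16 of the 39 genes measured higher in the A549 pair (27 at 2-fold). Of all genes 6.08% were higher there. In the H1993 pair 10 were higher (15) and 2 lower (4), against 9.52% and 10.7% of all genes. Between the adherent libraries 3 were higher and 0 lower (6 and 1), against 3.21% and 2.89%. Between the spheroid libraries 4 were higher and 6 lower (7 and 10), against 9.91% and 11.8%. Smaller counts follow from the construction of the limit. With library size alone, 1 gene, HIF1A, was lower in the A549 pair (0) and 0 between the adherent libraries (1). The shares of all genes lower were then 11.9% and 5.26%. The counts of these pairs under DESeq2 size factors, no filter, a prior count of 0.5 and unique exonic reads stayed within 1.5 times. The test over both lines called 0 genes higher with each edgeR setting except no filter, which called 4, and DESeq2 called 8; the cause was not tested. As a check on the pairing by line, leaving out the line term (no replicate block) gave 0 higher and 0 lower, and so did both spheroid libraries against A549 adherent cells alone (culture as the only term), where the lone adherent library is assumed to vary like the spheroids; since the count was already 0, neither says anything about stability. No paired analysis by replicate number was possible because each group has 1 library. Apart from the 3-fold limit, single folds crossed the 2-fold limit for HIF1A, BHLHE40 and P4HA2 in A549 and for PPFIA4 in the H1993 pair, and no called fold changed sign. With intronic reads scaled by the exonic factors, BHLHE40 stood at -1.01 and -0.70 in introns. In A549 the intronic sign changed under this scaling for ARNT (-0.19) and STC2 (-0.048), away from that of their exons. It also changed for PLOD2 (-0.13), to that of its exons. Genes under about 50 reads in a library (LOX, ANKRD37, BHLHE41, PPFIA4, TMEM45A, EFNA3 and HIF3A) have wide counting intervals, and depth does not bear on the lack of replicates.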
